A study of Homo sapiens with 6 samples.

Results

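Adhesion G protein-coupled receptors (adhesion GPCRs) were examined in mRNA-seq data of Kasumi-1 cells, among them ADGRE2, which encodes EMR2 (CD312), and ADGRG1, which encodes GPR56. The set holds 10 genes of the family, of which 9 are described: ADGRE1, ADGRE2, ADGRE3, ADGRE5, ADGRG1, ADGRG3, ADGRG6, ADGRL1 and ADGRA3. Each was found by its Ensembl identifier among the 29810 genes of the deposited table. Kasumi-1 is an established human AML cell line with the t(8;21) translocation, and all libraries come from this single line. The 3 control libraries come from cells with vehicle alone (DMSO per the methods) and the 3 others from cells with 0.25 μM I3, an inhibitor of histone deacetylases, each for 48 h per the labels and methods, although a legend of the study gives a longer time. The name of the deposited table gives the compound as I13. Nothing in the labels says whether the cultures were grown separately, so the p-values measure the spread between these libraries only, which may be technical.

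Adhesion GPCRs join a long extracellular part, which binds other cells or matrix, to a membrane-spanning part that couples to G proteins. Most cut themselves near the membrane at a site within the GAIN domain, and the outer fragment then stays attached without a covalent bond. In blood cells, the ADGRE receptors carry EGF-like repeats, and those other than ADGRE5 mark mainly monocytes, macrophages and granulocytes. GPR56 is found on cytotoxic lymphocytes and on hematopoietic stem cells. EMR2 served in the study as a marker of monocytes and macrophages, and whether its mRNA differs after I3 is the question of the comparison. The study reported ADGRE2 as significantly higher after I3 in its own mRNA-seq analysis with DESeq, a count model not used here. It also reported changed EMR2 mRNA by RT-PCR, changed EMR2 protein by western blotting and more CD312 by flow cytometry. Per its legends, these assays followed a longer treatment than the 48 h that the labels give for these libraries.

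Values are FPKM, fragments normalized by the authors to the length of the gene and the total of the library. Multiplied by the exon length of the gene, they were whole multiples of the worth of 1 read, within 0.1 read in all 6 libraries for 95.8% of the 26519 genes with a known length that were above 0 anywhere. The depth that follows was 17500320 to 18193373 reads per library. For a gene of 1 kb, a single read equals 0.0550 to 0.0571 FPKM. Genes that mark this line were present in every library, with a mean of 8106 FPKM for MPO (myeloperoxidase), 206.9 FPKM for KIT and 15.6 FPKM for RUNX1T1, the partner gene of the translocation. Of 14 markers of lymphoid, erythroid, stromal and epithelial cells, 9 were analysed and 2 had a mean of at least 0.5 FPKM, the B cell gene CD79A at 1.24 FPKM and the epithelial gene EPCAM at 29.99 FPKM. The sum of the 9 markers was 30.8 to 32.7 FPKM in control libraries and 30.6 to 33.7 FPKM after I3, all 9 were above 0 in at least 1 library, and their part in the results was not tested. In such bulk samples, fewer cells of a type and less RNA per cell cannot be told apart.

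The genes divided into 3 that were clearly transcribed (ADGRL1, ADGRE5 and ADGRA3), 1 at a low level (ADGRE2) and 5 with a few reads or none. Of the 9 genes, 7 were above 0 in any library and 3 reached the mean of 0.5 FPKM required for the test over all genes. ADGRE2 and ADGRG6 were therefore read from the same fit without this minimum. No fold change is given for ADGRG1 and ADGRG3, with at most 3 reads in either group, or for ADGRE1 and ADGRE3, which were listed at 0.

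**Figure D1:**
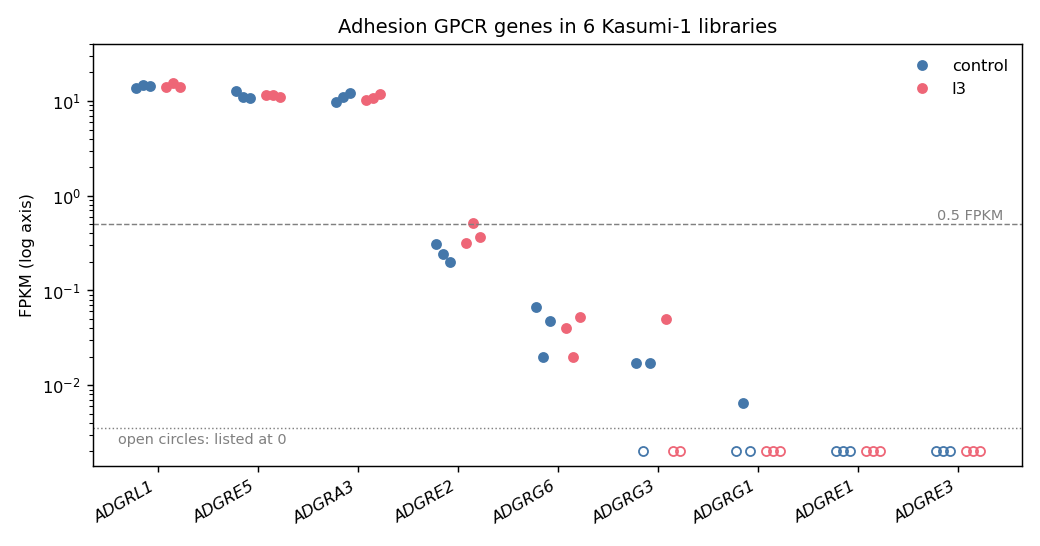
FPKM (log axis) of the 9 adhesion GPCR genes in 3 control (blue) and 3 I3 (red) libraries, 1 point per library, with open circles for values listed at 0 and a dashed line at 0.5 FPKM. ADGRL1, ADGRE5 and ADGRA3 lie between 9.80 and 15.4 FPKM, ADGRE2 between 0.199 and 0.521 FPKM, and the other genes at 0.0668 FPKM or less.

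Most of these genes lie in groups on chromosomes 19 and 16 (GENCODE release 29, GRCh38). ADGRL1 (14147743 to 14206187, minus strand), ADGRE5 (14380501 to 14408725, plus strand), ADGRE3 (14619117 to 14690027, minus strand) and ADGRE2 (14732393 to 14778541, minus strand) follow each other on chromosome 19. ADGRL1 and ADGRE5 are separated by 174 kb without another protein-coding gene, ADGRE5 and ADGRE3 by 210.4 kb with 8 such genes, and ADGRE3 and ADGRE2 by 42.4 kb without one. ADGRE1 lies on the same chromosome from 6887566 to 6940459. ADGRG1 (57610652 to 57665580) and ADGRG3 (57668187 to 57689378) lie on the plus strand of chromosome 16 with a gap of 2606 bases. ADGRG6 lies on chromosome 6 from 142301854 to 142446266 and ADGRA3 on chromosome 4 from 22345071 to 22516054. On chromosome 19 ADGRL1 and ADGRE5 were well transcribed and ADGRE3 was listed at 0, while both genes on chromosome 16 were near 0.

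EMR2 and CD97, the product of ADGRE5, are close relatives, and their shared sequence bears on how reads were counted. Of the 9009 distinct windows of 50 bases in ADGRE2 transcripts, 687 also occur in ADGRE5 transcripts, and 8.54% occur in any gene of another locus. Of the windows of ADGRE5, 12.3% occur in ADGRE2. The longest identical run of their coding sequences is 355 bases, at positions 520 to 874 of the longest ADGRE2 and 511 to 865 of the longest ADGRE5 coding sequence in GENCODE, counted from the start codon. Its ends are shown because they mark where a read can begin to tell the genes apart. The first and last 60 bases of the run are in capitals, each with its 30 flanking bases, which differ at 1 base before the run and at 9 bases after it.
ADGRE2, first end: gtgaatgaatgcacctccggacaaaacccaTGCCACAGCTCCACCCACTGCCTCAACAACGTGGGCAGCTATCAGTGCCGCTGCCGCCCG
ADGRE5, first end: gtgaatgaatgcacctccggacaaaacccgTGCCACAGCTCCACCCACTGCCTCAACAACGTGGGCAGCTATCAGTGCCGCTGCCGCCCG
ADGRE2, last end: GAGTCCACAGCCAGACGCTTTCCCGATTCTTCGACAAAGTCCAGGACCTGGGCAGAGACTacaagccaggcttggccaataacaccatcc
ADGRE5, last end: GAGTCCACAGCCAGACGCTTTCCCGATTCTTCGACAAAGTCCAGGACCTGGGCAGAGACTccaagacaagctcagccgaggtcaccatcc
A read inside the identical run cannot be placed in 1 of these genes by its sequence. The sources used here do not say how such reads were handled, so the assignment of reads from this stretch is uncertain. ADGRE3 shares 42 windows with ADGRE2, and ADGRE1, ADGRG1, ADGRG3 and ADGRG6 share none with a gene of another locus. ADGRA3 shares 427 of its 9384 windows with the pseudogene ADGRA3P1.

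ADGRE2 had the lowest level of the 4 receptor genes with more than a few reads, above 48.9% to 56.3% of the genes of the table in the single libraries. Its FPKM was 0.309, 0.241 and 0.199 in control 1, 2 and 3 and 0.319, 0.521 and 0.370 in I3 1, 2 and 3, from 47, 37 and 30 against 49, 80 and 58 reads. All 3 I3 values lay above all 3 control values, but I3 1 exceeded control 1 by only 2 reads, and I3 2 stood highest. ADGRE2 averaged 0.250 ± 0.0554 FPKM without I3 and 0.403 ± 0.105 FPKM with it (SD, n = 3 each). In limma, fitted across all genes on log2(FPKM + 0.5), the log2 fold change was 0.27 (standard error 0.134, 95% interval -0.062 to 0.59, unadjusted p = 0.0943, Benjamini-Hochberg adjusted p = 0.898), which did not pass the threshold. The scale understates a change at such a level, and the reads alone gave a ratio of 1.61 with an exact 95% interval of 1.27 to 2.06 that covers counting error only. The 3 I3 libraries also differed from each other by more than counting error. The chi-square was 8.46 against 3.73 in control libraries, each with 2 degrees of freedom. Such spread was not particular to ADGRE2. Over the better covered genes of the table, the chi-square per degree of freedom between replicates was at least 4.61. For ADGRE2 the two-sided exact permutation p was 0.1, the smallest that 3 against 3 libraries allow. The log2 fold change was 0.17 without I3 2, 0.48 after rescaling to TPM, 0.52 with a pseudocount of 0.1 and 0.68 with voom on rebuilt reads, where the unadjusted p was 0.0258 and the adjusted p 0.998. Without the trend in eBayes the unadjusted p was 0.0485, and the adjusted p ranged from 0.673 to 0.998 over all alternatives.

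ADGRE2 shares exon sequence with ZNF333, a zinc finger gene on the opposite strand. The overlap covers 1354 bases, 15.7% of the exon length of ADGRE2. The libraries were made with a stranded kit, but the sources used here do not say whether strand entered the counting, so reads from these bases cannot be ascribed to either gene with certainty. ZNF333 had 1.12, 1.05 and 1.10 FPKM in control 1, 2 and 3 and 1.18, 1.35 and 1.25 FPKM in I3 1, 2 and 3. Its groups did not overlap either, and I3 2 was again the highest library. The log2 fold change of ZNF333 was 0.14 (standard error 0.116, 95% interval -0.13 to 0.42, adjusted p = 0.998 from limma), and the part of this overlap in the ADGRE2 values was not tested.

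**Figure D2:**
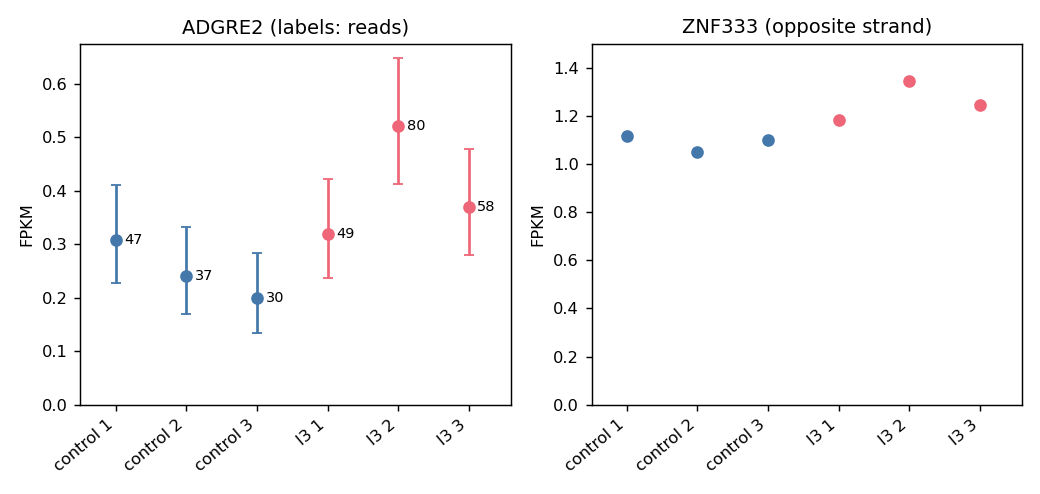
FPKM of ADGRE2 (left, with exact 95% Poisson intervals that cover counting error only and the number of reads beside each point) and of ZNF333 (right) in the 3 control (blue) and 3 I3 (red) libraries. Both genes have their highest value in I3 2, at 0.521 and 1.35 FPKM, and for ADGRE2 the intervals of control 1 and I3 1 almost coincide.

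ADGRE5, which encodes CD97, a receptor for CD55, was transcribed at a much higher level than ADGRE2. It had 12.7, 11.03 and 10.7 FPKM in control 1, 2 and 3 and 11.6, 11.7 and 10.96 FPKM in I3 1, 2 and 3. Control 1 was the highest library and the groups overlapped. The ADGRE5 level was 22.4 to 53.8 times that of ADGRE2, with 41.3 in control 1, 45.8 in control 2, 53.8 in control 3, 36.5 in I3 1, 22.4 in I3 2 and 29.6 in I3 3. ADGRE5 averaged 11.5 ± 1.10 FPKM without I3 and 11.4 ± 0.397 FPKM with it (SD, n = 3 each). On the log2 scale limma placed the difference at -0.0062, with a 95% interval from -0.19 to 0.18 and an adjusted p of 0.999. Its sign turned with the scaling, to 0.0037 after rescaling to TPM.

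ADGRL1 encodes latrophilin 1, a receptor for teneurins and FLRT proteins that is known mainly from neurons. It had the highest level of the 9 genes, with 13.6, 14.7 and 14.3 FPKM in control 1, 2 and 3 and 13.9, 15.4 and 14.1 FPKM in I3 1, 2 and 3. The values of both groups were interleaved. ADGRL1 averaged 14.2 ± 0.529 FPKM without I3 and 14.5 ± 0.797 FPKM with it (SD, n = 3 each). The log2 difference was 0.025, with a 95% interval from -0.13 to 0.18 and an adjusted p of 0.998 (limma). ADGRL1 stood above 89.3% to 90.6% of the genes of the table in the single libraries. Its antisense gene ADGRL1-AS1 shares 473 bases of exon, 5.57% of the exon length of ADGRL1, and had 0.897 to 1.43 FPKM, and its part in the ADGRL1 values was not tested.

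ADGRA3 encodes GPR125, an orphan receptor. It had 9.80, 11.0 and 12.1 FPKM in control 1, 2 and 3 and 10.2, 10.8 and 11.7 FPKM in I3 1, 2 and 3. The range of the controls enclosed the I3 values. ADGRA3 averaged 10.96 ± 1.14 FPKM without I3 and 10.9 ± 0.790 FPKM with it (SD, n = 3 each). The log2 difference from limma was -0.0057, with a 95% interval from -0.22 to 0.21 and an adjusted p of 0.999, and the sign turned to 0.0042 after rescaling to TPM.

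In order of level, ADGRL1 exceeded ADGRE5 in 6 of 6 libraries and the lowest ADGRL1 value was above the highest ADGRE5 value. ADGRE5 and ADGRA3 could not be ordered, since ADGRE5 was higher in 4 of 6 libraries and their ranges overlapped. ADGRE2 followed at a distance, and its lowest value of 0.199 FPKM was above the highest value of any gene after it.

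**Figure D3:**
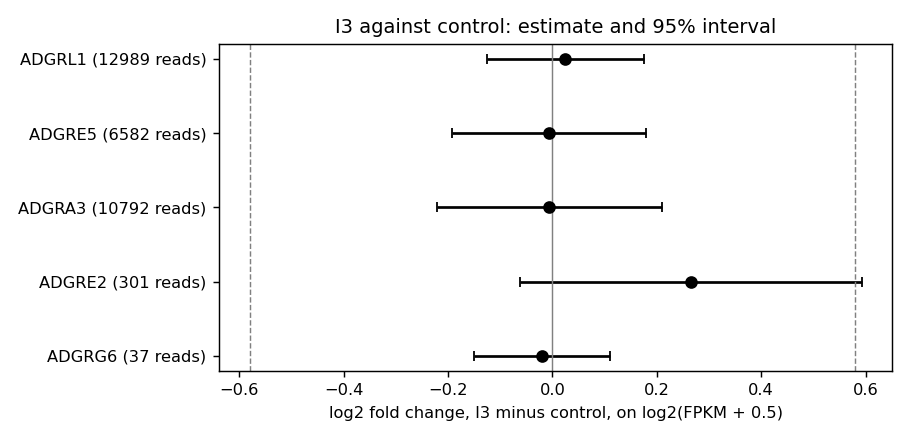
Log2 fold change between I3 and control libraries, on log2(FPKM + 0.5), with the 95% interval from limma for the 5 genes with more than 3 reads in a group, with dashed lines at 0.58 in either direction. Every interval includes 0, and the interval of ADGRE2, from -0.062 to 0.59, alone reaches the threshold, while the short interval of ADGRG6 follows from the pseudocount at 37 reads.

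The remaining receptors were at the limit of what this depth can show. ADGRG6 encodes GPR126, a collagen and laminin receptor required for myelination by Schwann cells. Control 1, 2 and 3 gave 10, 3 and 7 reads, and I3 1, 2 and 3 gave 6, 3 and 8, at most 0.0668 FPKM. The groups overlapped. The ratio of its reads after I3 to control was 0.837 with an interval of 0.412 to 1.68, so neither a difference nor its absence could be shown at this depth.

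ADGRG3 encodes GPR97, a receptor of granulocytes that binds proteinase 3. Control 1, 2 and 3 gave 1, 0 and 1 reads, and I3 1, 2 and 3 gave 3, 0 and 0. ADGRG1, the gene of GPR56, had 1 read in control 2 and none in the other libraries, although 3 reads on this gene would stand for only 0.0190 to 0.0198 FPKM. The single read amounts to 0.00649 FPKM. ADGRE1 (EMR1, the human counterpart of the mouse macrophage antigen F4/80) and ADGRE3 (EMR3) were listed at 0 in all 6 libraries, and 3 reads, the limit that a count of 0 allows, would stand for at most 0.0462 FPKM of ADGRE1 and 0.0604 FPKM of ADGRE3 in a library. Such limits cover counting error only.

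Promoter sequences were at hand in RefSeq (GRCh38.p14) for 5 of the 9 genes, and 4 are shown because they differ in CG dinucleotides while their genes differ in level. Each line gives the 250 bases before the annotated start, with CG in capitals. ADGRA3 is at chr4:22516067-22516316 (minus strand), ADGRG6 at chr6:142301757-142302006 (plus strand), ADGRE1 at chr19:6887329-6887578 (plus strand) and ADGRG1, the first of its 3 listed starts, at chr16:57619488-57619737 (plus strand).
ADGRA3: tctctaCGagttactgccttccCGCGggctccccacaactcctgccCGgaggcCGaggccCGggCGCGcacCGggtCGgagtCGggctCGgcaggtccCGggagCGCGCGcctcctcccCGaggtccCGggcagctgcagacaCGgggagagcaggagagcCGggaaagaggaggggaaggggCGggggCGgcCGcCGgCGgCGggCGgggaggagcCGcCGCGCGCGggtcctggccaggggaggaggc
ADGRG6: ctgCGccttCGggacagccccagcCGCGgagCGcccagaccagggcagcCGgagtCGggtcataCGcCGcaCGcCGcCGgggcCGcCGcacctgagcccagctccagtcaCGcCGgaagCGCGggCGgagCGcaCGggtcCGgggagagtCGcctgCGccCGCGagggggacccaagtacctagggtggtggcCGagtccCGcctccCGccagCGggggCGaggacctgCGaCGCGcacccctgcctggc
ADGRE1: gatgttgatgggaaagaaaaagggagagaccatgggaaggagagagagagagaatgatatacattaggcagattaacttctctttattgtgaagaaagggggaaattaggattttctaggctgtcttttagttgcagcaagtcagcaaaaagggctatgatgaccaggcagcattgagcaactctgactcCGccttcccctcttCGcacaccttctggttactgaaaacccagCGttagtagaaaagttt
ADGRG1: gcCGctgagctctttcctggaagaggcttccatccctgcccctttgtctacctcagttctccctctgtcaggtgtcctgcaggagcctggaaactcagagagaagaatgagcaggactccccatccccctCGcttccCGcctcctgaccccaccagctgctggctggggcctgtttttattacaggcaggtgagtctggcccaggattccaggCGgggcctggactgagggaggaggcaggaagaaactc
CG, which reads the same on both strands, occurs 32 times before ADGRA3, 34 times before ADGRG6, 3 times before ADGRE1 and 4 times before the first start of ADGRG1. The median of the 35116 promoters in the table is 11, and 9.52% of them hold at least as many as ADGRA3, 6.84% at least as many as ADGRG6 and 77.1% at least as many as ADGRE1. The other starts of ADGRG1 have 6 each, and ADGRE3 has 3. The genes with few CG were silent or nearly so in Kasumi-1 cells, but the count did not separate the transcribed ADGRA3 from ADGRG6 with its 37 reads. With 5 genes this is a description only.

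As to the comparison of I3 with control as a whole, limma called 0 of the 5 fitted receptors. A call took an adjusted p of at most 0.05 and a log2 difference of at least 0.58 in either direction. Only 3 of these 5 were among the 12960 tested genes, of which limma called 0 (0% of them). The rest of the 9 genes had too few reads or none and could not be called. With DESeq, the study reported genes called in both directions at these thresholds. An unadjusted p under 0.05 was reached by 639 of the tested genes (4.93%), higher after I3 in 269 (2.08%) and lower in 370 (2.85%), and by 1038 of the 26609 genes of the fit without a minimum (3.9%). None of the 5 fitted receptors reached it in limma, and voom on rebuilt reads and limma without the trend each put 1 of them, ADGRE2, under it. In these fits the share of all genes under it was 4.87% of 13606 and 4.37% of 26609. Groups without overlap were found for 1 of these 5, also ADGRE2, against 7.55% of all 26609 genes above 0 in any library, or 3.92% with I3 higher. Among the 12960 genes that passed the minimum, these shares were 9.7% and 5.06%. The median log2 fold change of the 3 genes that passed the minimum was -0.0057, against 0.011 over all tested genes.

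The other genes of the family place these receptors. Of 33 adhesion GPCR genes, 24 were analysed, 22 were above 0 in any library and 9 had a mean of at least 0.5 FPKM. Besides ADGRL1, ADGRE5 and ADGRA3, these were ADGRB1 (BAI1, an engulfment receptor for apoptotic cells) at 15.02 FPKM, CELSR1 at 5.85 FPKM, CELSR3 at 5.84 FPKM, ADGRA2 (GPR124) at 3.46 FPKM, CELSR2 at 2.31 FPKM and ADGRL3 (latrophilin 3) at 1.46 FPKM. CELSR proteins are cadherin-bearing receptors of planar cell polarity. ADGRB1 ranged from 13.9 to 16.4 FPKM and overlapped ADGRL1 in level. ADGRL1, ADGRE5 and ADGRA3 together made up 49.9% to 52.5% of the summed FPKM of the family, which was 70.5 to 73.6 in control libraries and 70.1 to 74.1 after I3, and ADGRE2 made up 0.274% to 0.704%. Of the 9 tested family genes, 0 had an unadjusted p under 0.05 in limma, and 3 had a log2 fold change above 0 and 6 below it, between -0.087 and 0.095. Of the 22 family genes above 0, only ADGRE2 and ADGRD2, both below the minimum, had groups that did not overlap. Over all 26609 genes above 0 in any library, the share without overlap was 7.55%. ADGRD2 had a log2 difference of 0.30 in limma (adjusted p = 0.898), and it is named after its values were seen.

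**Figure D4:**
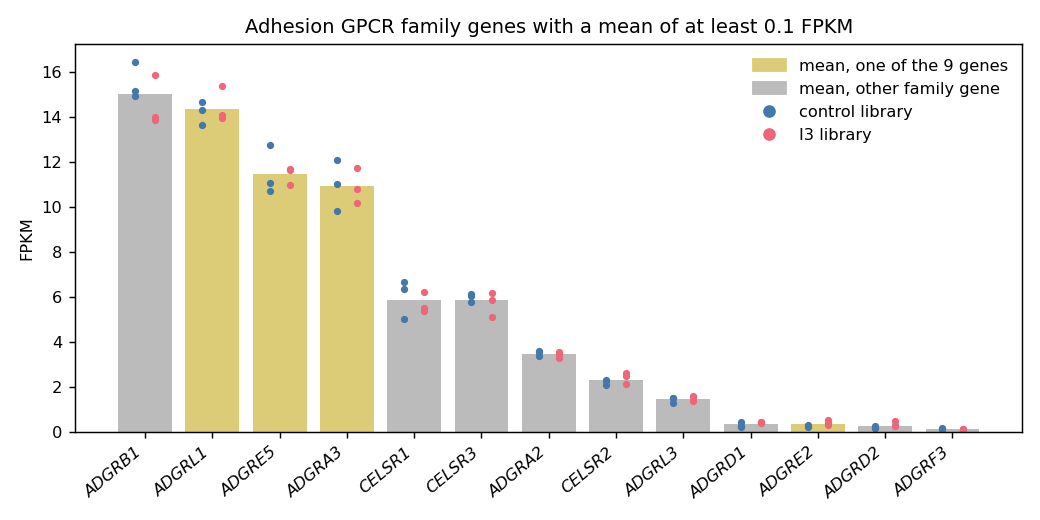
FPKM of the 13 adhesion GPCR family genes with a mean of at least 0.1 FPKM, with bars for the mean of the 6 libraries (yellow for the 9 genes described here, grey for others) and points for single control (blue) and I3 (red) libraries. ADGRB1, ADGRL1, ADGRE5 and ADGRA3 form the upper group, and ADGRE2 at 0.326 FPKM stands near the lower end.

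Ligands and surface partners of these receptors were present in part. Of 21 listed genes, 15 were analysed and 6 were tested, with 0 at an unadjusted p under 0.05 in limma (4.93% of all tested genes). PRTN3, which encodes proteinase 3, had the highest mean at 5823 FPKM, followed by the integrin chain ITGB1 at 91.8 FPKM and ITGA5 at 34.3 FPKM, both reported partners of CD97. CD81, a tetraspanin that binds GPR56, had 30.6 FPKM, PRNP, whose protein activates GPR126, had 22.1 FPKM and CD55 had 5.73 FPKM. TGM2, a matrix ligand of GPR56, was listed at 0 in all libraries. The log2 fold change of CD55 was -0.053 (95% interval -0.20 to 0.097). The 6 tested genes had a median of -0.053, against 0.011 over all tested genes.

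Among the tested markers of monocytes and macrophages, a group to which EMR2 belongs, no change was called. Of 18 listed genes, 14 were analysed and 7 were tested in limma, with 0 at an unadjusted p under 0.05 (4.93% of all tested genes). Their log2 fold changes ran from -0.34 for LYZ (lysozyme) to 0.024 for FCGR1A. The highest means were 47.4 FPKM for ANPEP (CD13), 14.4 FPKM for FUT4 (the enzyme that makes CD15) and 11.1 FPKM for CD33. ANPEP and CD33 were also listed among the genes of the cell line's identity. Of the antigens measured in the study beside EMR2, ITGAM (CD11b) had 0.0496 to 0.149 FPKM and CD14 at most 0.0303 FPKM in a library. Neither was among the 7 tested genes. The study measured both as surface protein, by flow cytometry after a longer treatment, and reported them higher in Kasumi-1 cells after I3. S100A8 and CD300E were listed at 0 in all libraries. The summed level of the 14 markers was 94.6 to 99.2 FPKM in control libraries and 86.1 to 100.4 FPKM after I3, and its part in the ADGRE2 values was not tested.

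The profiles of ADGRE2 and ADGRL1 over the 6 libraries were also compared with those of the other genes with a mean of at least 0.5 FPKM, as the root mean square difference of centred log2(FPKM + 0.5). The nearest of 12960 genes to ADGRE2 were ADARB2-AS1 (difference 0.0503), ENSG00000278932 (0.0628) and GPT (0.0632), against a median of 0.203. Like ADGRE2, each was highest in I3 2 and lowest in control 3. The nearest to ADGRL1 were NELFCD (0.0057), STK11IP (0.0081) and DHTKD1 (0.0109), against a median of 0.128, each lowest in control 1 and highest in I3 2. These are descriptions over 6 libraries and were not tested.

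**Figure D5:**
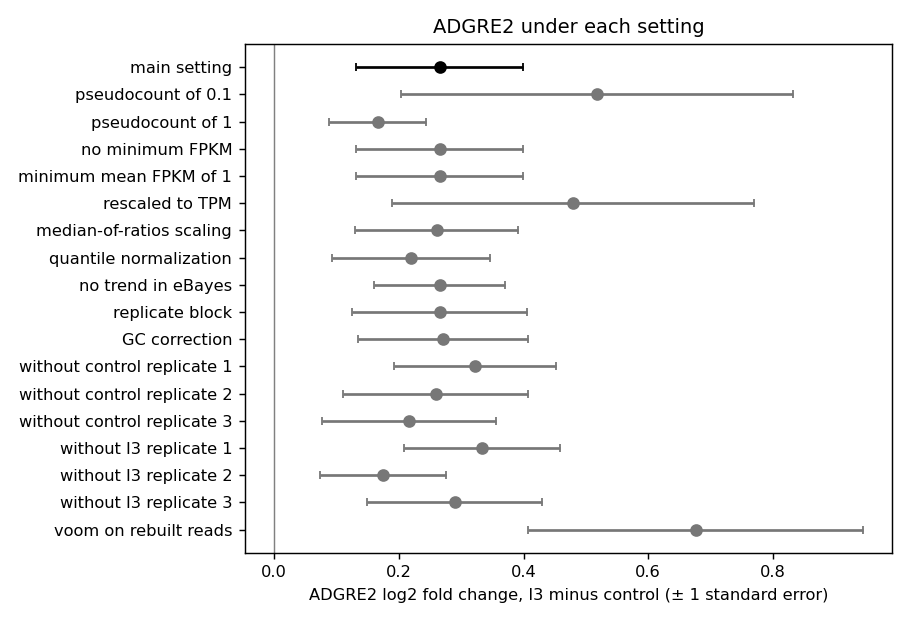
Log2 fold change of ADGRE2 between I3 and control (x axis, with bars of 1 standard error) in the main setting (black) and in 17 alternatives (grey), 4 of which (both minimum settings, no trend and the block) cannot move the estimate. All estimates lie above 0, between 0.17 and 0.68, with the lowest values at a pseudocount of 1 and without I3 2 and the highest with voom.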

How the data were processed

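Kasumi-1 cells were profiled by mRNA-seq in 3 control and 3 I3 libraries. The authors deposited FPKM values per gene, normalized to gene length and library total, with 1 column per library and no counts. The submitters' processing notes name Trimmomatic, HISAT2, Cufflinks, HTSeq and hg38, without roles or versions, and the sources used here give neither annotation nor strand setting. Groups came from the sample labels. Identifiers were matched to GENCODE release 29 (29703 of 29810) for symbols, coordinates, exon lengths and transcript GC content. Reads were rebuilt from FPKM and exon length at an inferred depth of 17500320 to 18193373 per library. The rebuilt reads summed to 17824273 to 18533222 per library.

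I3 was set against control in limma 3.58.1 under R 4.3.3 (eBayes with trend, two-sided). The fit used log2(FPKM + 0.5) of the 12960 genes whose mean reached 0.5 FPKM, without covariates, with Benjamini-Hochberg adjustment over all of them. The count model named in the methods was not used, since FPKM is not a count. A call required 0.05 for the adjusted p and 0.58 for the log2 difference. For single genes, an exact permutation test (two-sided) was run with scipy 1.17.1. Intervals are at 95%, with a 1-sided limit of 3 reads as the floor for values of 0. Alternatives were pseudocounts of 0.1 and 1, no minimum and a minimum of 1 FPKM, TPM, median-of-ratios and quantile scaling, no trend, a replicate block, omission of each library, a GC correction (lowess, span 0.3) and voom on rebuilt reads with a mean of at least 10. The procedure was tested on simulated data. The genes and lists were chosen with earlier results of these data known. One gene of the set and one of the lists are not reported here. Named genes are the 9 receptors, family genes with a mean of at least 0.5 FPKM, the 3 highest genes of each other list with any at an unadjusted p under 0.05, genes that overlap exons, the 3 nearest profiles and genes of the cell line's identity. Genes named outside this rule (ADGRD2, CD81, PRNP, CD55, TGM2, LYZ, FCGR1A, ITGAM, CD14, S100A8 and CD300E) were chosen after their values were seen.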

Additional observations from a re-analysis of the deposited data

How the results depend on the processing

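No alternative that kept all 6 libraries called a gene at the adjusted p, and 0 to 2 genes were called with single libraries left out (1 without control 1, 2 without I3 1 and 1 without I3 2), none of them among the 9 receptors. The number of receptors at an unadjusted p under 0.05 rose from 0 to 1 without the trend and to 1 with voom, in both cases ADGRE2, where 4.37% and 4.87% of all genes in those fits were under it. Leaving out libraries cannot undo the lack of overlap of ADGRE2 and added no other receptor. Of the 17 alternatives, 4 (no minimum, a minimum of 1, no trend and the block) leave a fold change as it is by construction. Under the other 13, 53 values of the 5 fitted receptors kept their direction and 12 turned it, and ADGRE2 stayed above 0 in each. Rescaling to TPM turned ADGRA3 to 0.0042 and ADGRE5 to 0.0037, and the GC correction turned ADGRE5 to 0.0206. With single libraries left out, ADGRA3 ranged from -0.0802 to 0.0639, ADGRE5 from -0.0536 to 0.0675, ADGRG6 from -0.0525 to 0.0098 and ADGRL1 from -0.0184 to 0.0509, and the cause was not tested. Family genes at an unadjusted p under 0.05 were 0 of the 9 over the minimum FPKM and 2 of 13 with voom, whose minimum of reads admits other genes. Both (ADGRE2 and ADGRD2) lie under the minimum FPKM, so they are outside the 0, also without the trend. Ligand genes were 1 with voom (TENM1, also under the minimum FPKM) and 0 to 1 with single libraries left out (1 without control 1, CD81). Monocyte markers were 0 to 1, with LYZ without I3 1. The share of all genes under it with a library left out was not computed, so CD81 and LYZ cannot be set against it. Whether the replicate numbers pair the libraries was not settled. The deviations of same-numbered libraries correlated at 0.0634, 0.151 and -0.0239, and those of differently numbered libraries at -0.172 to 0.101. The block lowered the standard error of ADGRA3 from 0.0917 to 0.0534 and that of ADGRE5 from 0.0790 to 0.0635. For ADGRL1 it fell from 0.0641 to 0.0502 and for ADGRG6 from 0.0533 to 0.0468, while for ADGRE2 it rose from 0.134 to 0.140. The block left the number of receptors called at 0 and gave ADGRE2 an unadjusted p of 0.138 in limma. The count of receptors with groups that do not overlap was not run with quantile normalization or the GC correction. Depth limits ADGRG1, ADGRG3 and ADGRG6, which rest on 1 to 37 reads in all.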
